A study of Mus musculus with 2 samples.

Results

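The 10 genes described here encode the regulators that mark the naive state of mouse pluripotent cells, namely Esrrb, Klf2, Klf4, Klf5, Tbx3, Nr5a2, Nr0b1, Gbx2, Zfp42 and Tcl1. They were chosen by name, among 12393 genes that the array reads with at least 1 unshared probe set, and every probe set that the platform table pairs with 1 of them alone was read, which gave 17 of 22690 probe sets. The cells were mouse induced pluripotent stem cells (iPSCs), kept in serum medium for embryonic stem cells to which 2i, a pair of inhibitors of MEK and GSK3, had been added. Both samples shared this cell type and medium. They differed in the sample type of their labels, hybridized for 1 and live for the other. The labels give no strain, reprogramming method or clone, and do not describe the hybridization. RNA of each sample was amplified and read on 1 array. With 1 array in each group no difference could be tested and no value has a replicate error, so the text describes these 2 preparations. Differences are in log2 units with the live value subtracted, so that a negative one is lower after hybridization and 1 unit is 2-fold.

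In naive cells, which resemble the inner cell mass of the blastocyst, the core factors Oct4, Sox2 and Nanog work together with a ring of auxiliary regulators. LIF acts through Stat3 on Klf4, GSK3 inhibition lifts repression by Tcf7l1 from Esrrb and other targets, and FGF signalling through ERK opposes the network, which is why 2i holds cells in this state. Many of these auxiliary factors can stand in for each other, and several of them, when supplied in excess, keep mouse embryonic stem cells undifferentiated without LIF. The group has 3 zinc finger proteins of the Krüppel-like family (Klf2, Klf4 and Klf5), the orphan nuclear receptors Esrrb, Nr5a2 and Nr0b1, the T-box protein Tbx3, the homeobox protein Gbx2 and the zinc finger protein Zfp42, also called Rex1. Tcl1 is not a DNA-binding factor but a coactivator of the kinase Akt.

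All 10 genes reached the level used for comparison, a mean log2 value of 5 over both arrays, on their brightest probe set, and they were at 5 or more on both arrays. By that probe set 8 of the 10 lay below 0 and 2 above it, with a median of -0.32 (-0.315 before rounding) and a mean of -0.475, where the 7262 genes compared had a median of -0.17 and 58.5% of them lay below 0. By 2-fold or more, 2 of the 10 were lower, Gbx2 and Klf2, against 15.4% of all genes compared. None of the 10 was 2-fold higher, against 8.43% of all genes. Within 1.5-fold lay 7 of the 10, against 52.7% of all genes. With so few members and 1 array in each group, these shares cannot set the group apart from other genes. No difference from the background was tested.

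**Figure D1:**
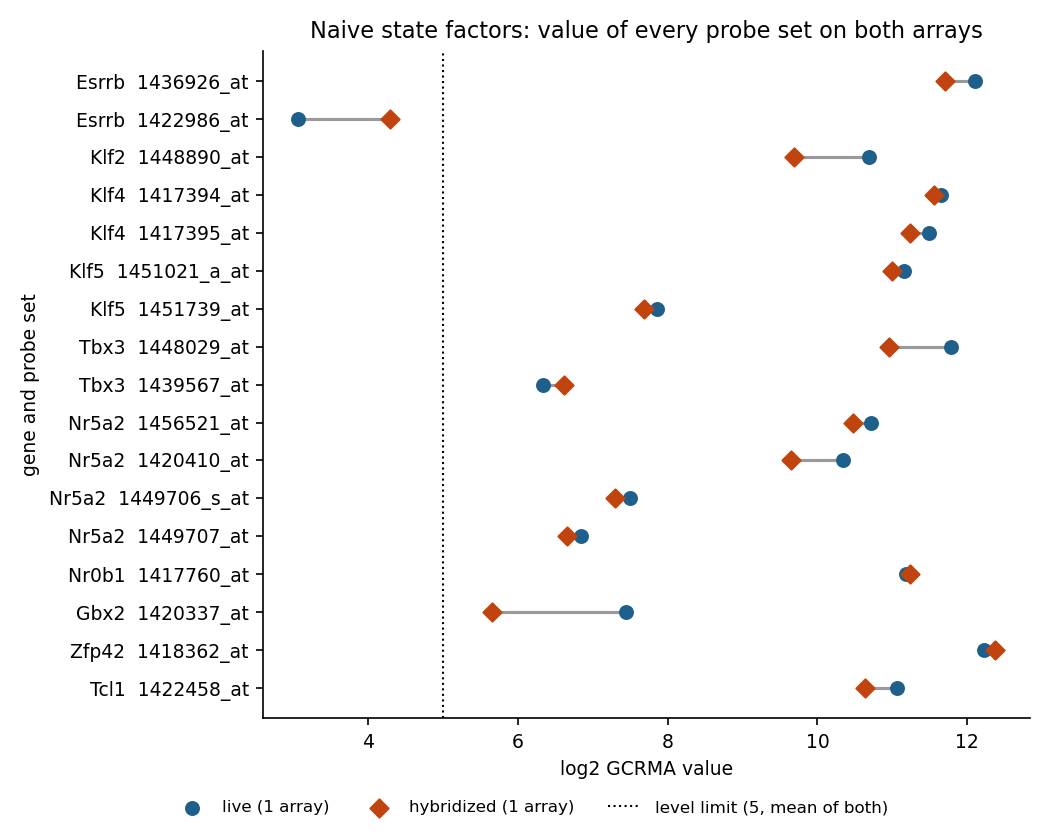
Log2 GCRMA values of the 17 probe sets of the 10 naive state factors (horizontal axis), 1 row per gene and probe set, with a circle for the live array and a diamond for the hybridized array. The longest distances to the left of the live value are those of Gbx2 (7.44 to 5.66) and Klf2 (10.69 to 9.69), and only 1 probe set, the dim one of Esrrb, lies under 5.

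The Krüppel-like factors recognise GC-rich and CACCC elements through 3 zinc fingers at their C-terminal end. Klf4, a factor of the original reprogramming cocktail and a target of LIF and Stat3, read 11.56 in the hybridized and 11.65 in the live sample on probe set 1417394_at, and 11.23 and 11.49 on 1417395_at. Klf5, which is also needed for the trophectoderm of the blastocyst, read 10.99 against 11.16 on 1451021_a_at and 7.69 against 7.86 on 1451739_at, so that both of its probe sets gave the same difference of -0.17. Klf2, which MEK inhibition is known to stabilise as a protein, read 9.69 against 10.69 on 1448890_at. It was lower by 1 log2 unit, exactly 2-fold, and since the values are given to 2 decimals the unrounded difference may lie on either side. Klf4 and Klf5 were thus close on the arrays, with every probe set within 0.26. Klf2 had no second probe set on which to repeat its reading. Over the 2720 genes with 2 or more probe sets at the level, the brightest and second brightest differed by a median of 0.60. Whether Klf2 differs from Klf4 and Klf5 was not tested.

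Esrrb, a nuclear receptor without a known natural ligand and a target of Tcf7l1, was bright on 1436926_at, at 11.70 against 12.10, a difference of -0.40. Its other probe set, 1422986_at, read 4.29 against 3.07, which is 1.22 the other way but under the level at which probe sets were compared. Nr5a2, also known as Lrh-1, binds an element close to that of Esrrb and can replace Oct4 in reprogramming. It was read on 4 probe sets, with 10.48 against 10.71 on 1456521_at, 9.65 against 10.34 on 1420410_at, 7.30 against 7.50 on 1449706_s_at and 6.66 against 6.85 on 1449707_at. All 4 were lower in the hybridized sample, 3 of them by 0.19 to 0.23 and 1420410_at by 0.69. Nr0b1, or Dax1, lacks the usual DNA-binding domain and acts mostly as a corepressor of other receptors and of Oct4. It read 11.23 against 11.18 on 1417760_at, a difference of 0.05.

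Tbx3, a repressor of the T-box family that is also active in extraembryonic endoderm, gave opposite signs on its 2 probe sets. On 1448029_at it read 10.95 against 11.79, 1.79-fold lower in the hybridized sample, and on 1439567_at 6.62 against 6.34, which is 0.28 higher. The gap of 1.12 between them was the widest among the 4 member genes with 2 or more probe sets at the level, where the gap from the brightest to the second brightest was 0.17 for Klf4, 0 for Klf5 and 0.46 for Nr5a2. Over the 2720 genes of the array for which 2 or more probe sets were at the level, the median size of the same gap was 0.60. On its bright probe set Tbx3, at -0.84, had the next lowest difference after Gbx2 and Klf2 among the brightest probe sets of the members.

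Gbx2, a homeobox factor downstream of LIF and Stat3 and later of the midbrain-hindbrain boundary, had the largest difference of the group. On its single probe set, 1420337_at, it read 5.66 in the hybridized and 7.44 in the live sample, 3.43-fold lower, with the hybridized value near the level limit. Tcl1, the Akt coactivator and a known target of Oct4, read 10.63 against 11.06 on 1422458_at. Zfp42, the marker most often used to report the naive state, read 12.37 against 12.23 on 1418362_at. Its difference of 0.14 was the highest among the brightest probe sets of the 10 genes.

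Counted by probe set, 16 of the 17 were at the level, 13 of these lay below 0 and 3 above, and the median difference was -0.22 (-0.215 before rounding). At least 2-fold apart were 2 of the 16, against 25.9% of all 11407 probe sets at the level, and 12 of the 16 lay within 1.5-fold, against 51.1%. The choice of probe set bears on direction across the array. Taken by brightest probe set, 8.43% of genes were 2-fold higher and 15.4% lower, whereas among the other 4145 probe sets at the level 21.3% were higher and 8.37% lower, and their median was 0.12. For a gene's second probe set the difference lay above that of its brightest in 1651 of 2720 genes, or 60.7%, with a median shift of 0.23. Of the members, the second brightest probe set lay above the brightest for Tbx3, below it for Klf4 and Nr5a2, and level with it for Klf5. Control probe sets for the 5' end of Actb and Gapdh gained 2.52 and 1.81 over those for the 3' end in the hybridized sample, and that of Tfrc gained 0.50. At which place the members' probe sets lie along their transcripts was not analysed here, and the part of this in their differences was not tested.

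Among all genes the SD of the difference was 0.98 at a mean from 5 to under 7, 1.00 from 7 to under 9, 0.80 from 9 to under 11 and 0.53 from 11, and most members lie in the bright ranges. At a mean of 11 or more lay 6 members, Esrrb, Klf4, Klf5, Tbx3, Nr0b1 and Zfp42, and none of them was 2-fold apart, against 6.31% of the 1521 genes in that range. From 9 to under 11 lay Klf2, Nr5a2 and Tcl1, of which only Klf2 was 2-fold lower, against 10.6% of 2325 genes. Gbx2 lay in the dimmest range, from 5 to under 7, where 28.6% of 1407 genes were at least 2-fold lower. In its own range 6.97% of genes had a difference at or below that of Gbx2, 10.6% at or below that of Klf2, and 5.98% at or below that of Tbx3. Set against genes of like signal, Tbx3 on its bright probe set thus had about the same place as Gbx2, although it did not reach 2-fold. Its other probe set, 1439567_at, was 0.28 higher in the hybridized sample.

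**Figure D2:**
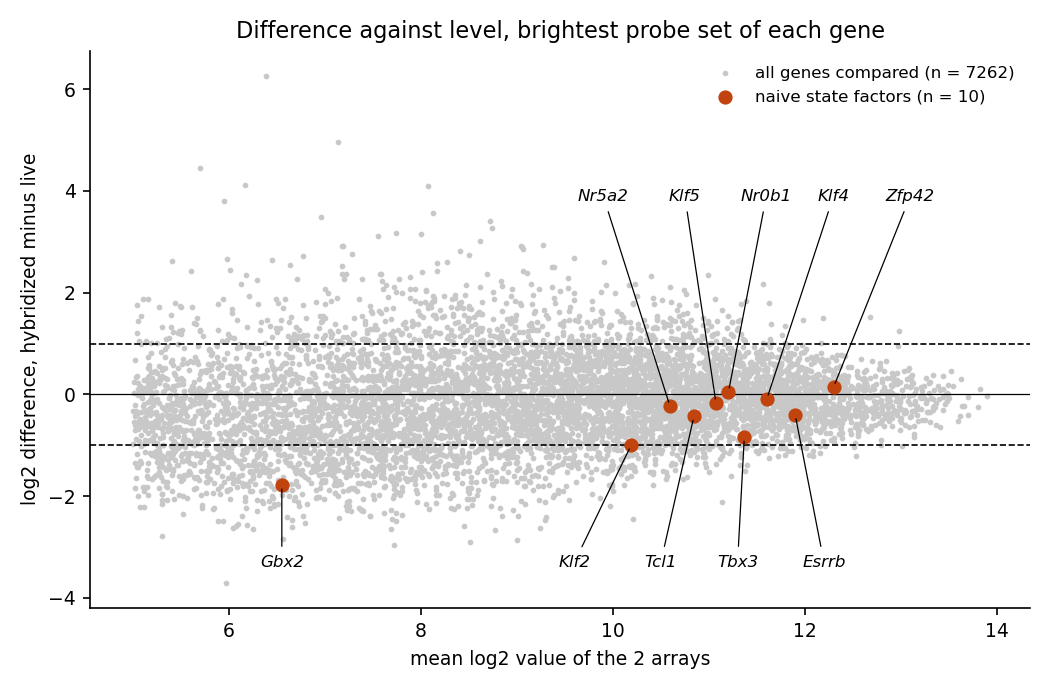
Log2 difference, hybridized minus live (vertical axis), against the mean log2 value of the 2 arrays (horizontal axis) for the brightest probe set of each of 7262 genes (grey) and of the 10 naive state factors (coloured, named), with dashed lines at 2-fold. Gbx2 lies at -1.78 in the wide, dim part of the cloud, Klf2 on the lower line, and the other factors between -0.84 and 0.14.

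The promoter sequences below show the members at the ends of this range, Gbx2 and Klf2 as the lowest and Zfp42 as the highest; they were picked after the values had been seen. They are the 250 bases before the annotated start, in the direction of the gene, taken from RefSeq on GRCm38.p6, where 8 of the 10 genes had an entry and Esrrb and Nr5a2 each had 2 windows. Klf2 lies at chr8:72318812-72319061 on the plus strand, Gbx2 at chr1:89931177-89931426 on the minus strand and Zfp42 at chr8:43307010-43307259 on the minus strand. Capitals mark matches, on either strand, to the letters of 6 elements read by members of the network or their partners: the octamer ATGCAAAT of Oct4, the GC box GGGCGGG and the CACCC box GGGTGGG of Klf and Sp factors, the nuclear receptor half-site AGGTCA, the T-box site AGGTGTGA and the STAT site TTCCNGGAA.
Klf2: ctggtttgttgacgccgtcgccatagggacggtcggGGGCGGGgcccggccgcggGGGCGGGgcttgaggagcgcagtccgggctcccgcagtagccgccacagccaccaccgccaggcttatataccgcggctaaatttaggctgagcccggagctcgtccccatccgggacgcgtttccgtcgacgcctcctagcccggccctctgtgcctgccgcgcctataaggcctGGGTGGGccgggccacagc
Gbx2: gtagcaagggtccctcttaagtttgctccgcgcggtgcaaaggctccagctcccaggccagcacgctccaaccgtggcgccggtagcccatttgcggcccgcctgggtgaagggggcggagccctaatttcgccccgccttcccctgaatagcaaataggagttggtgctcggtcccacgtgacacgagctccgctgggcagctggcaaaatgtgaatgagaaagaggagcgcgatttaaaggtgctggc
Zfp42: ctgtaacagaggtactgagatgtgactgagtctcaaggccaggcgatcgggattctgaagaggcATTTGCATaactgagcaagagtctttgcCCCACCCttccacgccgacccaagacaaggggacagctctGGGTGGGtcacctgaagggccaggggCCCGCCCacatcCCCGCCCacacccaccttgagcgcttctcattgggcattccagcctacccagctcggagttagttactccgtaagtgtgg
The Klf2 window held 2 GC boxes, from 214 to 208 and from 195 to 189 bases before the start, and a CACCC box from 19 to 13. The Zfp42 window held the octamer, from 186 to 179 bases before the start, with 2 CACCC and 2 GC boxes nearer to it. The letters of none of the 6 elements occurred in the Gbx2 window. Of 32851 windows of the same length from all genes, 1.6% held the octamer, 23.4% the GC box, 15.8% the CACCC box, 14.0% the half-site, 1.12% the T-box site and 0.913% the STAT site. Of the 10 windows of members, 1 held the octamer, 4 the GC box, 6 the CACCC box, 2 the half-site and none the last 2. Both windows of Esrrb are among the 6, and no difference from the shares of all windows was tested. CpG pairs numbered 29 in the Klf2 window, 18 in that of Gbx2 and 9 in that of Zfp42, with a median of 6 over all windows, and 32 in that of Klf4, whose difference was -0.09. Whether the number of CpG pairs goes with the difference was not tested. The marked matches are a description of letters, not of binding.

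Around the members, the network was described by gene lists. Counts in the lists are by the brightest probe set, on which 8.43% of all genes compared were 2-fold higher and 15.4% lower. The core factors Pou5f1 (10.83 against 11.53), Sox2 (12.76 against 12.77), Nanog (13.17 against 13.03) and Sall4 (12.96 against 13.28) were all within 2-fold. Of 14 other naive genes at the level, out of 20 listed, 2 were higher by 2-fold or more and 1 lower, with a median of 0.01. Crxos, a homeobox gene, read 8.43 against 6.94, and Spic, an Ets-family factor, 7.27 against 6.09 with a difference of 1.78 on its second probe set. Bcl3, a nuclear cofactor of NF-kappaB and a target of LIF, read 7.86 against 9.64. Tfcp2l1, the factor that transmits much of the LIF signal in these cells, differed by -0.01. The probe sets of Jam2 did not go together, with -0.09 on the brightest and 1.45, -1.14 and 1.54 on the others.

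The inputs to the members were mixed. Among 8 genes of LIF and Stat3 signalling, by the brightest probe set 0 were 2-fold higher and 1 lower, with a median of -0.33. The lower one was the ligand Lif itself, at 5.2 against 6.31, with 0.19 on its other probe set, under the level. The receptor Lifr read 11.69 against 10.77, and the feedback inhibitor Socs3 differed by -0.62 to -0.80 on its 3 probe sets. Il6st differed by 0.49 on its brightest probe set. Its second read 6.22 against 3.77, a difference of 2.45, with a mean of 4.995, just under the level. Ptpn11 differed by -0.22 on its brightest probe set and by -0.30 and 2.22 on the others, both under the level. Of 6 Wnt and Tcf genes at the level 2 were lower and none higher, with a median of -0.42. These were Gsk3a, one of the kinases that 2i inhibits, at 8.14 against 9.86, and Tcf7l1, the repressor of Esrrb, at 9.09 against 10.55 and -0.89 on its second probe set. The probe sets of Ctnnb1, which encodes beta-catenin, did not go together, with -0.46 on the brightest and 2.24 and 4.71 on the other 2 at the level. Of 8 FGF and ERK genes 1 was higher, the immediate early gene Egr1 at 9.62 against 4.65. By the brightest probe set 1 was lower, the receptor Fgfr1 at 8.88 against 10.49, and the median was -0.14 (-0.135 before rounding). Map2k2, of the same list, differed by -0.81 on its brightest probe set and by -1.67 on its second. Among 8 cofactors 2 were lower, Ncoa3, a coactivator of Esrrb, at 7.99 against 9.13 and the corepressor Ctbp1 at 10.21 against 11.40, with a median of -0.33. Genes of the formative and primed states, which follow the naive state, had 8 of 13 at the level, with Otx2 at 6.45 against 5.41 on the higher side and Pou3f1 (6.77 against 8.39) and Etv4 (5.98 against 7.61) on the lower, and a median of -0.30 (-0.295 before rounding). Fgf5, a usual marker of primed cells, was at 2.77 and 3.02, near the bottom of the scale on both arrays.

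**Figure D3:**
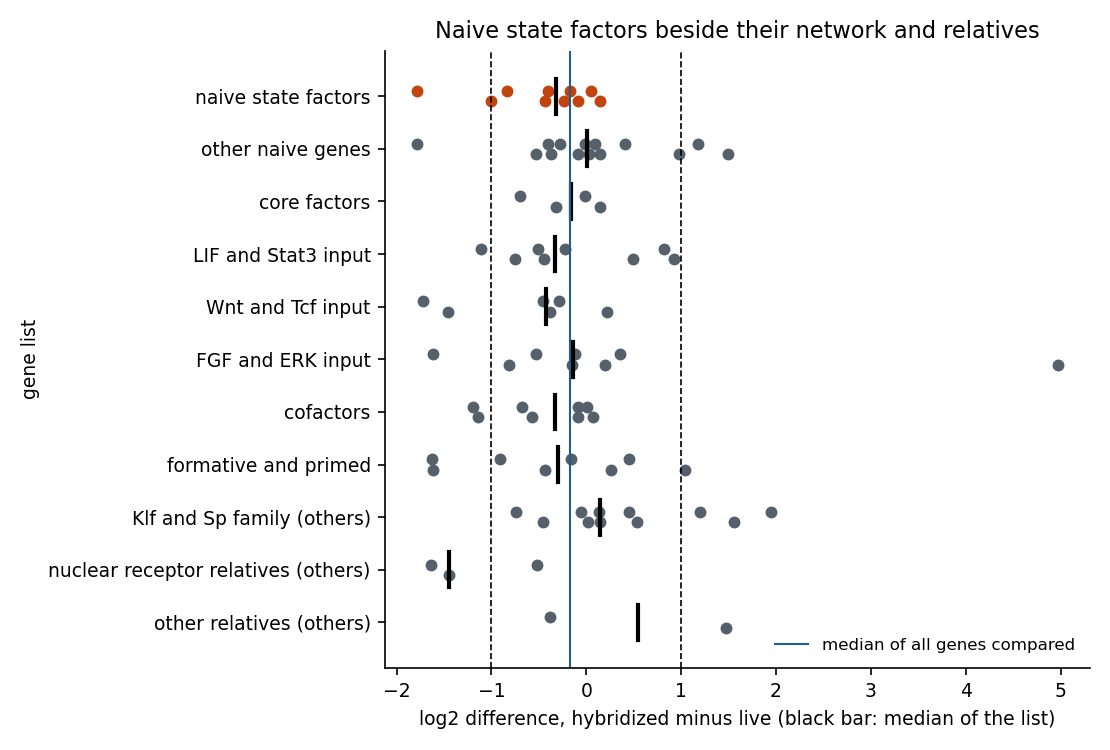
Log2 differences, hybridized minus live (horizontal axis), of the genes at the level in each list (rows), 1 point per gene, with a black bar at the list's median, a vertical line at the median of all genes compared (-0.17) and dashed lines at 2-fold. The naive state factors have a median of -0.32 and the other naive genes of 0.01. Of the rows drawn the other nuclear receptors alone have no point above 0, but that row holds only 3 genes. Rara, at 0.83 but under the level, is not drawn.

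Among relatives of the members, most close paralogs were dim on both arrays. Esrra (3.66 and 4.24), Esrrg, Nr5a1, Nr0b2, Tbx2, Tbx4, Tbx5, Tbx6 and Tcl1b1 were under 5 in both samples, as was Klf17, a family member of early embryos, at 1.73 and 1.67. Of 15 other Klf and Sp genes read, 11 were at the level, with a median of 0.14. By the brightest probe set 3 of the 11 were higher by 2-fold or more and none lower, against 8.43% and 15.4% of all genes. The 3 were the zinc finger factors Sp3 (9.43 against 7.48), Sp4 (8.93 against 7.37) and Sp1 (11.39 against 10.19), the last with only 0.07 on its second probe set. Klf6 differed by 0.45 on its brightest probe set and by 1.32 on its second. Klf9 differed by 0.14 on its brightest and by -0.03, -1.32, -0.85 and 0.25 on the others at the level. Of the other nuclear receptors 3 were at the level, and 2 of these were 2-fold lower, the retinoic acid receptor Rarg at 8.02 against 9.66 and its partner Rxrb at 9.34 against 10.79. Yy1, the relative of Zfp42, differed by -0.38 on its brightest probe set and by -0.04 and 0.87 on the others at the level. Mtcp1, the relative of Tcl1, differed by 1.47. No difference between a member and its relatives was tested.

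The sign of the small differences depended on how the arrays were set against each other. The 18 probe sets for hybridization controls, transcripts of bacterial and phage origin, differed by -1.22 to -0.15 with a median of -0.80. Centred on them, every difference rises by that amount, 31.8% of all genes are 2-fold higher and 2.84% lower, and 0 members are 2-fold apart; then Gbx2 differs by -0.98, Klf2 by -0.20 and Tbx3 by -0.04, and the other 7 members lie above 0, from 0.37 for Tcl1 to 0.94 for Zfp42. Centred on the median gene, Gbx2 was the only member 2-fold lower, at -1.61, with Klf2 at -0.83, and 11.5% of all genes were lower. After a loess correction for level Gbx2 was at -1.31 and Klf2 at -0.96, with 9.75% of all genes lower. Under that control centring the other naive genes had 4 that were 2-fold higher and 0 lower, and the other Klf and Sp genes 5 and 0. Loess and quantile normalization, which can change the order of the members, left Gbx2 lowest, then Klf2 and Tbx3, and Zfp42 highest; the centrings shift all genes alike and cannot change it. Over the scalings the signs of Esrrb, Klf4, Klf5, Nr5a2 and Tcl1 did not hold and Nr0b1 came to 0 after quantile normalization.

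**Figure D4:**
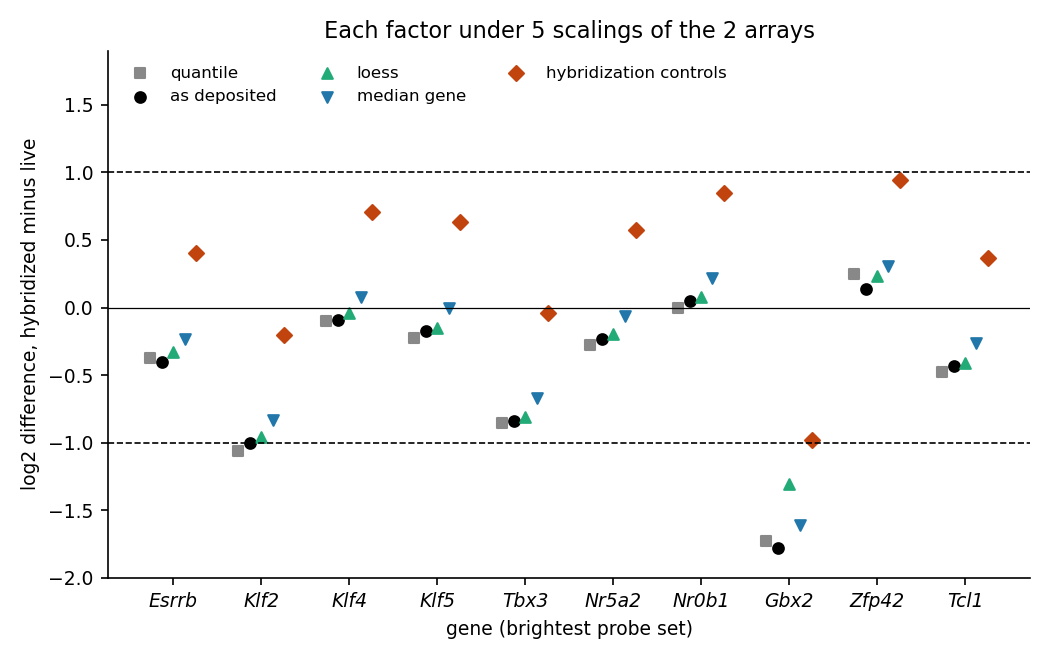
Log2 difference, hybridized minus live (vertical axis), of the brightest probe set of each naive state factor (horizontal axis) under 5 scalings of the 2 arrays, shown by symbol, with dashed lines at 2-fold. Gbx2 is the lowest under each, from -1.78 as deposited to -0.98 when centred on the hybridization controls, and Klf2 crosses the lower line.

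The label of the cells was checked on marker genes. All 6 pluripotent cell markers were at the level and within 2-fold, where 8.43% of all genes compared were 2-fold higher and 15.4% lower. All but Utf1 had a mean of 11 or more, a range in which 6.31% of genes were 2-fold apart. The 4 core factors given above are among these markers, so this is not a separate check. Of 13 fibroblast markers 3 were at the level, Vim at 12.92 against 13.07, Col5a1 at 5.43 against 7.58 and Col1a1 at 4.46 against 6.17, with -0.04 on the second probe set of Col5a1. The other 10 had a mean under 5; Pdgfrb (3.62 against 5.22), Twist1 (4.15 against 5.37) and Thy1 (3.07 against 3.76) were lower in the hybridized sample, and Col1a2, Col3a1, S100a4, Twist2, Postn, Lum and Dcn were under 3 on both arrays. Summed on the linear scale by brightest probe set, the fibroblast markers came to 7886 in the hybridized and 8989 in the live sample. Nearly all of it was Vim, and the other 12 came to 136.2 and 390.2. Of 10 trophectoderm markers 5 were at the level and 2 of them 2-fold lower, Ascl2 at 4.0 against 6.22 and Krt8 at 8.40 against 9.88, while Eomes read 7.11 against 7.19, Krt18 8.01 against 7.30 and Tfap2c 12.93 against 12.24. The other 5, Cdx2 and Elf5 among them, were under 5 on both arrays. The sums were 8607 in the hybridized and 6208 in the live sample, but without Tfap2c, which carries most of them, 803 and 1371. Of 9 primitive endoderm markers Lama1 (8.62 against 9.27) and Col4a1 (6.06 against 7.4) were at the level, and Gata4, Gata6 and Sox17 were under 4 on both arrays. The sums were 518 in the hybridized and 852 in the live sample, and Lama1 and Col4a1 carry most of them. Klf5 and Tbx3 are also active in these lineages, and the part of other cells in the members' differences was not tested. In RNA from a bulk sample, fewer cells of a type and less RNA per cell cannot be told apart.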

How the data were processed

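Expression was read in 2 samples, 1 array each, grouped by the sample type of the labels. The authors deposited 1 log2 value per probe set; GCRMA and affy are named per the submitters' processing notes, with versions, build and joint normalization not given in the sources used here. The log base was inferred from the method and the range of 1.02 to 14.24, scanner intensities were not analysed here, and GCRMA leaves values near the bottom of the scale without order. Of 22690 probe sets 20380 had 1 gene in the platform table; symbols were updated by Entrez ID to RefSeq names, which matched 12369 of 12393 genes. A gene was read on its brightest probe set, by the mean of both arrays, and compared at a mean of 5 or more, a set limit and not a detection call. Nothing was tested, because each group had 1 array. The named genes are all members, and the list genes at least 2-fold apart (otherwise the furthest), with further examples chosen after their values were seen; members and lists were chosen with earlier results of these data known. The counting was tested on simulated data without noise, which checks the arithmetic and says nothing about array error or probe sets that disagree. Python 3.11.15, pandas 2.3.3, numpy 2.4.6, statsmodels 0.14.6 and matplotlib 3.10.9 were used.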

Additional observations from a re-analysis of the deposited data

How the results depend on the processing

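The alternatives were level limits of 4, 7 or none, averaging the probe sets of a gene, leaving out suffixed probe sets (_x_at, _s_at, _a_at), 4 other scalings, and thresholds of 1.5-fold and 4-fold. The count of 0 members at least 2-fold higher was the same under all 11. The other level limits and the 4-fold threshold could not have raised it, because all members were already at the level. The 2 members that were 2-fold lower became 1 at a level of 7, which leaves out Gbx2, 1 after centring on the median gene and 1 after loess, 0 with control centring and 0 at a 4-fold threshold. The 2 probe sets at least 2-fold apart became 1 at a level of 7, 1 after median centring, 1 after loess, 1 with control centring (Tbx3 on 1439567_at, higher), 4 at 1.5-fold and 0 at 4-fold; no value exists for the mean over probe sets. The members' median of -0.315 was 0.485 with control centring and from -0.3275 to -0.145 otherwise, and that of the other naive genes, 0.01, was 0.81 with control centring. A change in a log2 value was counted as a move when it passed 0.73, and one in a count when it passed 1.5 times; the first is the spread between a gene's probe sets (SD of the gap over the square root of 2), which covers no replicate error. The mean over probe sets turned Esrrb to 0.41, through its probe set under the level. The number of all genes 2-fold apart, 1727, was 3437 at 1.5-fold and 200 at 4-fold. No paired analysis was possible because each group has 1 sample. Signal over background was not analysed here, and the number of arrays limits every value.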
